A study of Mus musculus with 8 samples.

Results

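The matrix metalloproteinase (Mmp) cluster of mouse chromosome 9 holds Mmp13, Mmp12, Mmp1b, Mmp3, Mmp1a, Mmp10, Mmp8, Mmp27, Mmp20 and Mmp7, in this order along the chromosome. These 10 members were taken by name, for their place in the cluster and not by a threshold on any value, though with earlier results of these data known, from 22020 coding genes on the 21 main chromosomes, of which 1224 lie on chromosome 9. Their bodies, start sites and common span were set against maps of H3K9me1, H3K9me2 and H3K9me3, in which lysine 9 on histone H3 carries 1, 2 or 3 methyl groups, to ask which of these genes lie in H3K9-methylated chromatin.

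The maps came from chromatin immunoprecipitation sequencing (ChIP-seq) of mouse embryonic fibroblasts (MEFs). The 8 libraries formed 4 groups of 2 replicates, namely fragmented input DNA and the immunoprecipitates of H3K9me1, H3K9me2 and H3K9me3. All groups were labelled wild type. According to the study's methods, the cells that it calls WT are a single selected clone with a tamoxifen-inducible conditional Eset1 allele (clone E1c), so each map describes a lone clone without induced deletion. Each mark had 1 list of called regions, used here with all its rows, with 42704 regions for H3K9me1, 29119 for H3K9me2 and 27108 for H3K9me3. A list gives only chromosome, start and end. It has no height, no p-value and no value per replicate, and the depth behind a region is unknown from it. No replicate error and no test of a difference could therefore be computed, and every share below describes 1 map. The lists hold no RNA measurement, so neither the expression of the Mmp genes nor the fibroblast identity was checked.

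Matrix metalloproteinases are zinc-dependent endopeptidases that are made as inactive proenzymes and cleave collagens and other components of the extracellular matrix after activation. Fibroblasts are a major source of interstitial collagenase and stromelysin, whose genes are low in resting cells and are induced by cytokines and phorbol esters, in part through the transcription factor AP-1. H3K9me2 and H3K9me3 are marks of silent chromatin, bound by HP1 proteins, whereas H3K9me1 is also found at transcribed genes.

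Promoter sequences are shown for Mmp1a, Mmp1b, Mmp12, Mmp20, Mmp7, Mmp13 and Mmp3, a choice that holds some inside a called region and some outside. Those of Mmp10, Mmp8 and Mmp27, and a further one of Mmp7, are not shown. Each run gives 250 bases before and 50 bases from a RefSeq start site (GRCm38.p6, 5′ to 3′ on the gene's strand). All 10 members matched, with 12 entries. Capitals mark the AP-1 motif TGAGTCA or TGACTCA, which are the reverse complements of each other, and the TATA motif TATAAA, both searched on either strand. The entries of Mmp1a, Mmp20 and Mmp7 and the upstream entry of Mmp12 lay wholly inside a called region, and those of Mmp1b, Mmp13 and Mmp3 and the downstream entry of Mmp12 met none.
Mmp1a, chr9:7463891-7464190, plus strand: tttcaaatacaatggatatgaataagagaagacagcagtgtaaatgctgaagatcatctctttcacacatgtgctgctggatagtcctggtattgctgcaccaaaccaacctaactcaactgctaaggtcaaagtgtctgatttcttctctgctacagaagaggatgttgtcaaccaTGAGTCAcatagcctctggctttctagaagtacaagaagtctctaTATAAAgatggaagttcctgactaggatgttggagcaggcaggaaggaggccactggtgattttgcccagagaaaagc
Mmp1b, chr9:7387977-7388276, minus strand: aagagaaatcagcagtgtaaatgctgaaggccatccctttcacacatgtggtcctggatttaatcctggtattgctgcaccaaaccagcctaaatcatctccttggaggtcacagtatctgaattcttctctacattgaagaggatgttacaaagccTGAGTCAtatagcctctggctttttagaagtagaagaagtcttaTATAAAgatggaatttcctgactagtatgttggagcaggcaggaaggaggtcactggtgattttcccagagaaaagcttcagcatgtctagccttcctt
Mmp12 upstream start, chr9:7344147-7344446, plus strand: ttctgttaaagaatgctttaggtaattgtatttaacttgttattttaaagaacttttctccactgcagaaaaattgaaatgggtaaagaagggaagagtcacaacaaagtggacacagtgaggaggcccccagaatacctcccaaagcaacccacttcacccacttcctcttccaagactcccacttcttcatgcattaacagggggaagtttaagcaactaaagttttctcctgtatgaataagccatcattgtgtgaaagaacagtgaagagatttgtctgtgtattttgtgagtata
Mmp12 downstream start, chr9:7347124-7347423, plus strand: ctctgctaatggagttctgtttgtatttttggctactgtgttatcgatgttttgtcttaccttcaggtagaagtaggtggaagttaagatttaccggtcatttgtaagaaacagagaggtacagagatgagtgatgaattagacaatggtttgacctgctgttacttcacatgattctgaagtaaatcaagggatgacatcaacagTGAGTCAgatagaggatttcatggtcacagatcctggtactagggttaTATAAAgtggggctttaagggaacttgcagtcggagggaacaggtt
Mmp20, chr9:7627981-7628280, plus strand: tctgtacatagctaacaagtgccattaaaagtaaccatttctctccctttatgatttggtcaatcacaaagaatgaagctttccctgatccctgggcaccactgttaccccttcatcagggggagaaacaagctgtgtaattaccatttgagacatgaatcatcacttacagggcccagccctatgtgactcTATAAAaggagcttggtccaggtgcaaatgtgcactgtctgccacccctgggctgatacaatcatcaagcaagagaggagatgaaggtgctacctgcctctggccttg
Mmp7, chr9:7691840-7692139, plus strand: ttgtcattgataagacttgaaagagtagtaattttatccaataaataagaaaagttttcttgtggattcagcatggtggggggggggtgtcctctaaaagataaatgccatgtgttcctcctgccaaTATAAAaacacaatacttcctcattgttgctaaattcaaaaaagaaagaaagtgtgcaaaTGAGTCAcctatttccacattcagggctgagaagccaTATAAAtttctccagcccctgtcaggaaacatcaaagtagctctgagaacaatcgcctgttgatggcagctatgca
Mmp13, chr9:7272264-7272563, plus strand: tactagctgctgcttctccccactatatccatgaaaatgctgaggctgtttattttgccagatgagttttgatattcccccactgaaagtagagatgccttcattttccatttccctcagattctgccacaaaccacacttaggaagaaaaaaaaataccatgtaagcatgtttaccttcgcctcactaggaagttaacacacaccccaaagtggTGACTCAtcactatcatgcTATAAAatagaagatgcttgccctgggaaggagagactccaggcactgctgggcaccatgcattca
Mmp3, chr9:7445572-7445871, plus strand: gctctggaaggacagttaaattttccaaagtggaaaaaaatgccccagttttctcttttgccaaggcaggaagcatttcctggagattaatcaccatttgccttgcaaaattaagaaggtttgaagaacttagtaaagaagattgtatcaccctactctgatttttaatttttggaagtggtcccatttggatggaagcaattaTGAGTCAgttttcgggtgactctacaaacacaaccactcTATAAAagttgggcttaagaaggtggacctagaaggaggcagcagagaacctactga

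The start sites of 6 of the 10 members met a called region, and H3K9me2 and H3K9me1 were the marks found there. A start counted as met where a region reached within 1 kb of any annotated transcript start. H3K9me2 met Mmp12, Mmp1b, Mmp1a and Mmp20. H3K9me1 met Mmp8, Mmp20 and Mmp7. H3K9me3 met 0 of the 10. Mmp20 was the single member with 2 marks at its start, and Mmp13, Mmp3, Mmp10 and Mmp27 had none. On chromosome 9 as a whole, H3K9me2 met 15.4% of coding gene starts, H3K9me1 46.3% and H3K9me3 10.1%, and any mark met 54.9%. Over the main chromosomes these shares were 10.8%, 28.2% and 10.2%, with 33% for any mark. The latter shares average over chromosomes with very different numbers of regions, from 3 to 5942 for H3K9me1, 1 to 5654 for H3K9me3 and, on the 19 chromosomes that had any, 3 to 6731 for H3K9me2. The H3K9me2 share of the members, 4 of 10, lay above both backgrounds, the H3K9me1 share lay between them, and the H3K9me3 share lay below them. With 10 neighbouring genes and 1 map per mark, none of these differences was tested. H3K9me2 without another mark lay at 3 members' starts, against 2.86% of coding gene starts on chromosome 9.

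**Figure D1:**
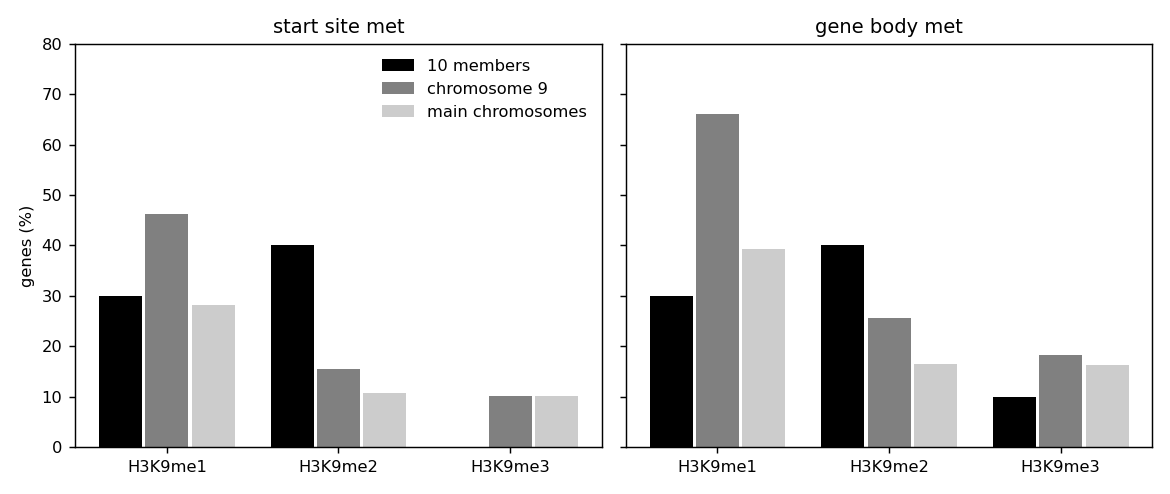
Share of genes (%) whose start site (left) or gene body (right) met a called region of each mark, for the 10 members (black), the 1224 coding genes of chromosome 9 (grey) and the 22020 coding genes of the main chromosomes (light grey). For H3K9me2 the members stand at 40% in each panel, against 15.4% and 25.5% on chromosome 9, and no member start met H3K9me3.

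Mmp1a, Mmp1b, Mmp8 and Mmp13 were classed here as collagenases. The class is named for cleavage of the triple helix of fibrillar collagens, and the activity of each member was not examined. Mmp1a (ENSMUSG00000043089.6, chr9:7464141-7476869, plus strand) and Mmp1b (ENSMUSG00000041620.8, chr9:7368239-7388047, minus strand) are the mouse counterparts of human interstitial collagenase. The 2 kb around the Mmp1a start lay wholly (100%) inside an H3K9me2 region of 4.5 kb, chr9:7461751-7466250, which reached over 615 bp of exon, 56 bp of UTR and 1439 bp of intron and covered 16.6% of the body. GENCODE classes Mmp1a as a polymorphic pseudogene, a gene that is coding in some strains and not in the reference. At Mmp1b an H3K9me2 region of 2.25 kb, chr9:7385251-7387500, began 0.547 kb inside the gene and covered 22.7% of the start window, 517 bp of exon and 1733 bp of intron. The Mmp1b start therefore met H3K9me2 by its downstream side only, and its promoter sequence met no region. The pair differed further inside the genes, where an H3K9me3 region of 8.25 kb, chr9:7370251-7378500, covered 41.6% of the Mmp1b body and no H3K9me3 lay in Mmp1a. That region held 8116 bp of intron and 134 bp of exon, and lay 9.55 kb from the Mmp1b start.

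Mmp1a and Mmp1b are close copies, and a read from a stretch that both share cannot be placed by its own sequence, although a paired read may place it. Of all 100-base stretches, the length of a read in the study, 4.02% of those in Mmp1a and 2.58% of those in Mmp1b had an exact copy in the other gene. In the H3K9me2 region at Mmp1a 5.43% of such stretches were repeated within the cluster span, in that at Mmp1b 6.23%, and in the H3K9me3 region of Mmp1b 14%. The other 8 members shared no such stretch with another member. These shares leave out of account the paired reads and any copies elsewhere in the genome. How repeated stretches were handled before calling is not given in the sources used here, and their part in the calls was not tested.

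Mmp8 (ENSMUSG00000005800.3, chr9:7558456-7568485, plus strand), the neutrophil collagenase, had an H3K9me1 region of 1.5 kb at its start, chr9:7557001-7558500. It covered 52.2% of the start window but ended 45 bp into the gene, in the UTR, so that 0.449% of the body was covered. Mmp13 (ENSMUSG00000050578.10, chr9:7272514-7283331, plus strand), the main collagenase of cartilage and bone, met no region at its start or in its body. Its nearest H3K9me3 region lay 24.2 kb away, its nearest H3K9me2 region 26.5 kb and its nearest H3K9me1 region 127 kb. The collagenases thus ranged from a start wholly inside H3K9me2 to a gene with no region at its start or in its body.

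The stromelysins Mmp3 and Mmp10 cleave proteoglycans and fibronectin and activate other proenzymes. Neither Mmp3 (ENSMUSG00000043613.8, chr9:7445822-7455975, plus strand) nor Mmp10 (ENSMUSG00000047562.3, chr9:7502352-7510240, plus strand) met a region at its start or in its body. The Mmp3 start lay 15.9 kb from H3K9me2, 17.1 kb from H3K9me3 and 105 kb from H3K9me1. The Mmp10 start lay 6.10 kb from an H3K9me3 region of 3 kb, chr9:7493251-7496250, which was the shortest distance from any member start to H3K9me3. H3K9me2 was 36.1 kb and H3K9me1 48.6 kb from Mmp10. Mmp10 lay in the longest stretch without any mark counted inside the span, 53.2 kb from 7496251 to 7549500. The unmarked stretch that holds Mmp13, from 7145251 to 7296750, runs beyond the span and is longer.

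Mmp12 (ENSMUSG00000049723.14, chr9:7344381-7369499, plus strand), the macrophage metalloelastase, has 4 annotated start sites in 2 groups. An H3K9me2 region of 9 kb, chr9:7335751-7344750, lay upstream of the gene and ended 0.37 kb inside it. It covered 68.5% of the window around the upstream start at 7344381 and 67.7% of that at 7344397. The downstream starts, at 7347374 and 7347406, had no region in their windows and lay 2.62 kb and 2.66 kb from this region. In the sequences above, the downstream entry of Mmp12 holds the AP-1 and TATA motifs and the upstream entry holds neither. The H3K9me2 call at Mmp12 thus concerned the upstream starts only. The body was covered to 1.47%. The 3′ ends of Mmp12 and Mmp1b overlap by 1.26 kb, a stretch in which no mark was called.

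Mmp7 (ENSMUSG00000018623.9, chr9:7692090-7699585, plus strand), or matrilysin, is made by epithelia and lacks the hemopexin domain of its relatives. An H3K9me1 region of 7.5 kb, chr9:7685251-7692750, covered 83.0% of its start window and 8.82% of its body. An H3K9me2 region of 5.25 kb, chr9:7685251-7690500, covered 70.0% of this H3K9me1 region but ended 1.59 kb before the start. Mmp7 was therefore met by H3K9me1 alone within 1 kb, while a window of 2 kb either side added H3K9me2. Both regions lay in an intron of the antisense transcript AV064505 (chr9:7669429-7695631) and held the pseudogene Gm19212.

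Mmp20 (ENSMUSG00000018620.3, chr9:7628231-7674979, plus strand) encodes enamelysin, a protease of developing tooth enamel that other tissues hardly make. Its start window was covered to 100% by an H3K9me1 region of 3.75 kb, chr9:7626001-7629750, and to 100% by an H3K9me2 region of 4.5 kb, chr9:7626001-7630500. Inside the gene H3K9me2 continued in introns, with a region of 3 kb, chr9:7648501-7651500, and one of 12.75 kb, chr9:7655251-7668000. The latter was the widest region of any mark in the span. H3K9me2 covered 38.5% of the Mmp20 body (18.0 kb of 46.8 kb), and H3K9me1 3.25%. Mmp27 (ENSMUSG00000070323.11, chr9:7571396-7581885, plus strand), a less studied member, has 3 annotated starts and met no region. Its 5′ end lay 12.9 kb from H3K9me1, 18.9 kb from H3K9me2 and 38.1 kb from H3K9me3.

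**Figure D2:**
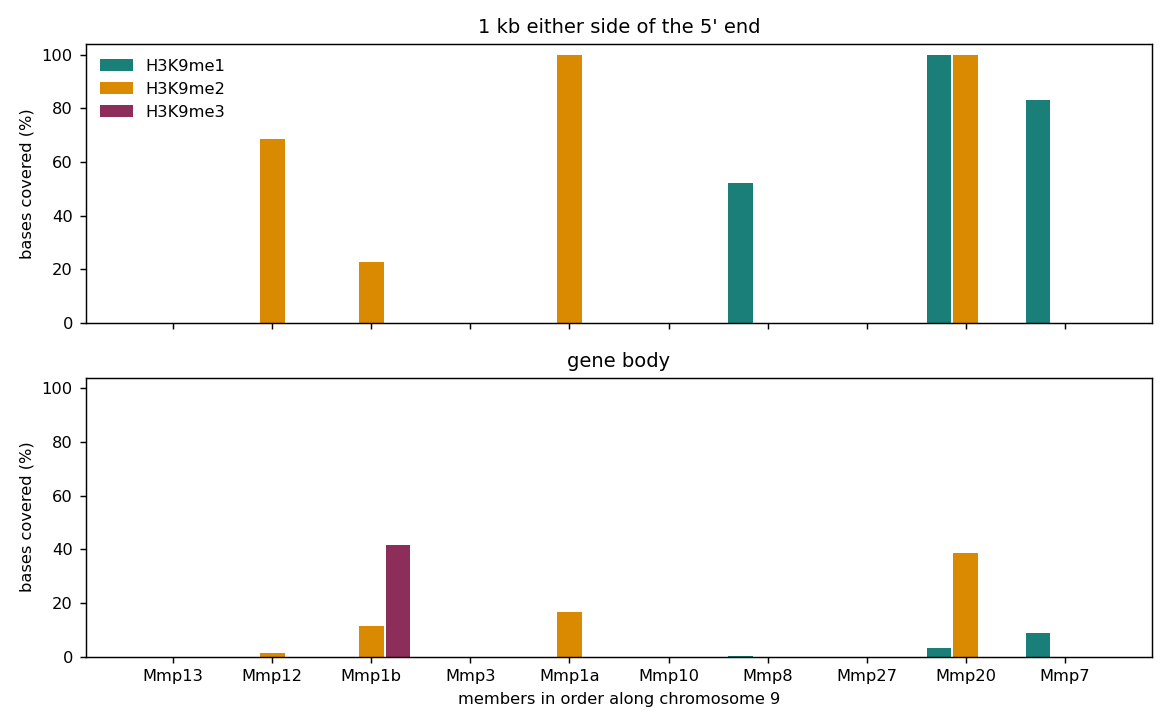
Share of bases (%) covered by H3K9me1, H3K9me2 and H3K9me3 in the window of 1 kb either side of the gene's 5′ end (top) and in the gene body (bottom), for the members in chromosomal order. Coverage of the windows reached 100% at Mmp1a and Mmp20, while the bodies stayed at or below 41.6%, the H3K9me3 value of Mmp1b.

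At the members whose start met H3K9me1 or H3K9me2, that mark covered a smaller share of the body than of the start window. These members were taken because that window met the mark, so the contrast follows largely from the choice. H3K9me3 lay in a body and at no start. H3K9me2 met the bodies of 4 members, the same as at the starts, H3K9me1 those of 3 and H3K9me3 that of Mmp1b. On chromosome 9 the bodies of 25.5%, 66.1% and 18.2% of coding genes met H3K9me2, H3K9me1 and H3K9me3, and 73.9% met any mark. Over the main chromosomes the shares were 16.5%, 39.2% and 16.3%, and 44.7% for any mark. Members are short, with a median body of 10.7 kb against 19.4 kb on chromosome 9, so the shares are not matched for length. No member was covered over 50% or more of its body by any mark, whereas 32.8% of coding genes on chromosome 9 were so covered by H3K9me1, 6.54% by H3K9me2 and 4.66% by H3K9me3. Over all body bases the members were covered to 14.1% by H3K9me2, 5.12% by H3K9me3 and 1.38% by H3K9me1, against 9.70%, 10.7% and 28.0% for chromosome 9. The H3K9me2 share rested on Mmp20, which held 18.0 kb of it. Without Mmp20 the other 9 members were covered to 4.13% by H3K9me2, below chromosome 9, to 7.20% by H3K9me3 and to 0.616% by H3K9me1.

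The 10 genes span 427 kb, chr9:7272514-7699585 (GRCm38), in which 9 genes point the same way and Mmp1b is reversed. H3K9me2 covered 14.2% of the span in 12 regions (95% Wilson interval 11.6 to 17.3% over 569 bins of 750 bp), H3K9me3 10.01% in 6 regions (7.81 to 12.8%) and H3K9me1 4.39% in 7 regions (2.99 to 6.40%). These intervals serve only as bounds for the recomputed shares below. They measure no spread of these data, because every bin of the span was counted and neighbouring bins are not independent. Chromosome 9 was covered to 11.4%, 13.9% and 19.45% by H3K9me2, H3K9me3 and H3K9me1. Cut into 284 windows as long as the span, chromosome 9 had a median coverage of 5.97% for H3K9me2 (quartiles 0.878 and 16.4%), 6.15% for H3K9me3 (1.71 and 15.7%) and 11.1% for H3K9me1 (0.176 and 36.6%). The span lay within the quartiles for each mark. With 200 kb added on either side, H3K9me2 covered 7.71%, H3K9me3 5.53% and H3K9me1 5.69%, so that for H3K9me2 the value above chromosome 9 became a value below it.

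The flanks held fewer H3K9me2 and H3K9me3 regions than the span, and H3K9me1 differed between the sides, without a test. In the 200 kb on the Mmp13 side no H3K9me2 or H3K9me3 region was called, and H3K9me1 covered 1.5%, with 1 region in Dync2h1, which encodes the heavy chain of the ciliary dynein. In the 200 kb on the Mmp7 side H3K9me1 covered 12.7% in 9 regions, and H3K9me2 and H3K9me3 covered 1.5% each in 2 regions and 1 region. The H3K9me1 regions there included one of 7.5 kb in Tmem123 and 2 in Birc3, which encodes an inhibitor of apoptosis. There were 5 coding neighbours, Dync2h1, Dcun1d5, Tmem123, Birc2 and Birc3. H3K9me1 met the start windows of Dync2h1 and Birc3, in each case at a start other than the gene's 5′ end. The region within 200 kb on the Mmp13 side met no start window, so the Dync2h1 start was met by H3K9me1 beyond that flank. Neither H3K9me2 nor H3K9me3 met a start or a body of these neighbours. The gap without H3K9me2 that holds Mmp13 ran for 377.25 kb, from 6921751 to 7299000, and that without H3K9me3 for 392.25 kb, from 6904501 to 7296750. Their right edges lay inside the span, between Mmp13 and Mmp12.

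**Figure D3:**
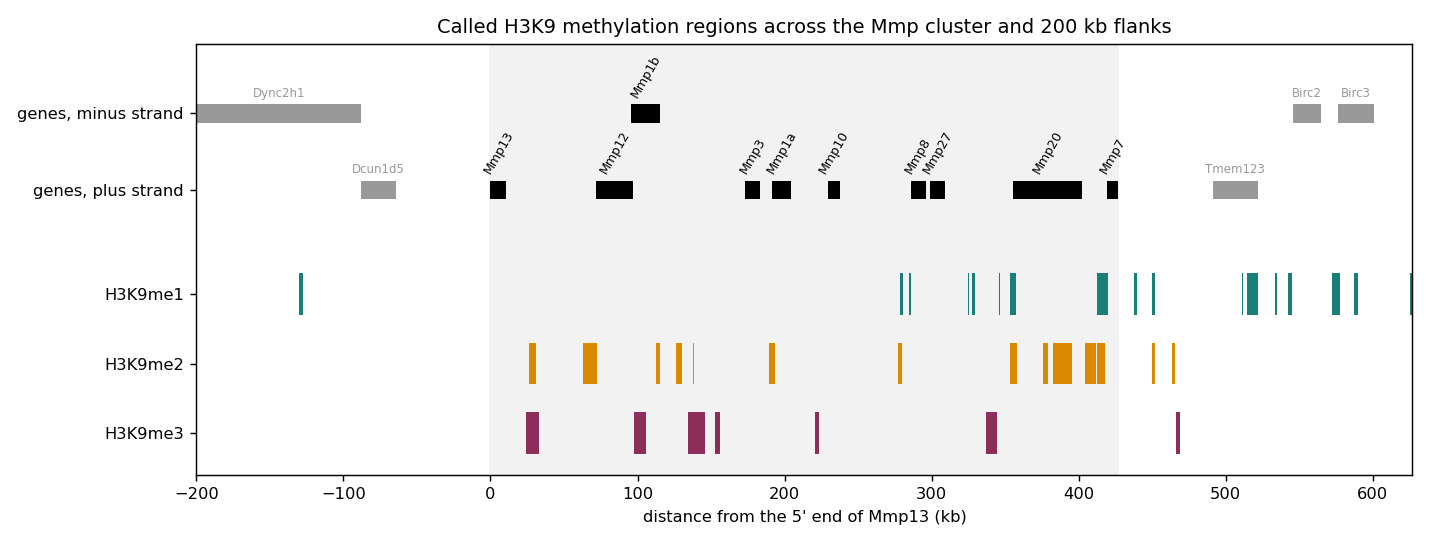
Called regions of H3K9me1, H3K9me2 and H3K9me3 (coloured bars) and coding genes (members black, neighbours grey, by strand) along the cluster span (shaded) and its 200 kb flanks, against the distance from the 5′ end of Mmp13 in kb. H3K9me1 bars are missing from the left part of the span, where 5 of the 6 H3K9me3 regions lie.

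Within the span the marks were laid out unevenly. Left of the unmarked stretch that holds Mmp10, where Mmp13, Mmp12, Mmp1b, Mmp3 and Mmp1a lie, there were 0 H3K9me1, 6 H3K9me2 and 5 H3K9me3 regions. Right of its left edge, where Mmp10, Mmp8, Mmp27, Mmp20 and Mmp7 lie, there were 7, 6 and 1. This dividing point was chosen after the maps were seen. The gap without H3K9me1 ran beyond the span, from 7145251 to 7551000 (405.75 kb), and held 6 members and Dcun1d5. Of 4253 gaps between H3K9me1 regions on chromosome 9, 34 were at least this long. This counts gaps and not bases, and a long gap holds more bases than a short one. In chromosome 9 windows as long as the span, the lower quartile of H3K9me1 coverage was 0.176%. From the 5′ ends of the members the nearest H3K9me1 region lay at 0 to 199 kb, with a median of 67.8 kb, against a median of 3.52 kb for coding genes of chromosome 9. The 6 members in the gap were measured to the edges of that 1 gap, so their distances are not independent. For H3K9me2 the distances were 0 to 36.1 kb, with a median of 3.77 kb against 36.1 kb, and for H3K9me3 6.10 to 51.0 kb, with a median of 25.1 kb against 47.9 kb.

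**Figure D4:**
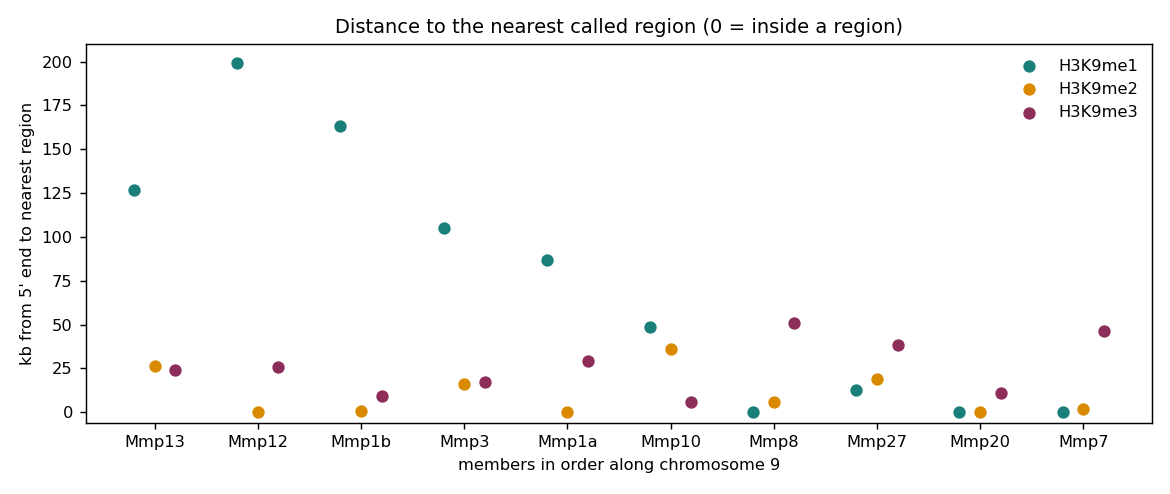
Distance in kb from the 5′ end of each member to the nearest called region of each mark, with 0 for a 5′ end inside a region. H3K9me1 lay 48.6 to 199 kb from Mmp13, Mmp12, Mmp1b, Mmp3, Mmp1a and Mmp10 and at most 12.9 kb from the other 4 members, and H3K9me3 was never nearer than 6.10 kb.

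Few bases of the cluster carried more than 1 mark, and few did on chromosome 9 as a whole. In the span 24.9% of bases carried a mark, of which 85.2% carried 1 mark, 14.8% carried 2 marks and 0% all 3. On chromosome 9, with N bases counted, 34.7% of bases carried a mark. Of these 78% carried 1 mark, 18.7% carried 2 marks and 3.28% all 3. In the span H3K9me1 and H3K9me3 shared no base. Of the H3K9me1 bases 56.0% also carried H3K9me2, at Mmp20, upstream of Mmp7 and between Mmp10 and Mmp8, against 19.2% on chromosome 9. Of the H3K9me3 bases 12.3% also carried H3K9me2, against 35.7% on chromosome 9, and of the H3K9me2 bases 8.64% also carried H3K9me3, against 43.4%. The shared H3K9me2 and H3K9me3 bases lay at chr9:7299001-7303500, between Mmp13 and Mmp12, and in a single bin at chr9:7410001-7410750, between Mmp1b and Mmp3. Neither place lay within 1 kb of a member start.

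The marks also differed in the sequence they covered. Repeat-derived sequence was read as the soft-masked share of the reference. Of H3K9me3 bases in the span 86.3% were soft-masked, against 30.5% of H3K9me1 bases, 31.4% of H3K9me2 bases and 47.8% of all bases of the span. Each of the 6 H3K9me3 regions was over 50% soft-masked (69.3 to 99.6%, median 89.3%), a property of 29.9% of the 1993 H3K9me3 regions of chromosome 9, whose median was 27.6%. The 7 regions that met a member start had 14.9 to 26.2% (median 18.9%), and the 18 that met none had 21.6 to 100% (median 60.1%). The 18 hold all 6 H3K9me3 regions and the 7 hold none, so this contrast is mixed with that between marks. On chromosome 9 regions at coding starts had medians of 21.0% for H3K9me1, 17.1% for H3K9me2 and 21.4% for H3K9me3. The other regions of chromosome 9 had higher medians, of 23%, 22.2% and 28.4%, each a smaller contrast than that in the span. The H3K9me3 region inside Mmp1b was the least soft-masked of the 6. Repeated sequence also bears on how many reads can be placed, and its part in these calls was not tested. GC content was 43.6% for H3K9me1, 42.7% for H3K9me2 and 44.7% for H3K9me3 bases in the span. Unmarked bases of the span had 39.9% and all its bases 40.8%. Marked bases were also above all bases on chromosome 9, with 46%, 45.3% and 44.4% for these marks against 42.7%.

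**Figure D5:**
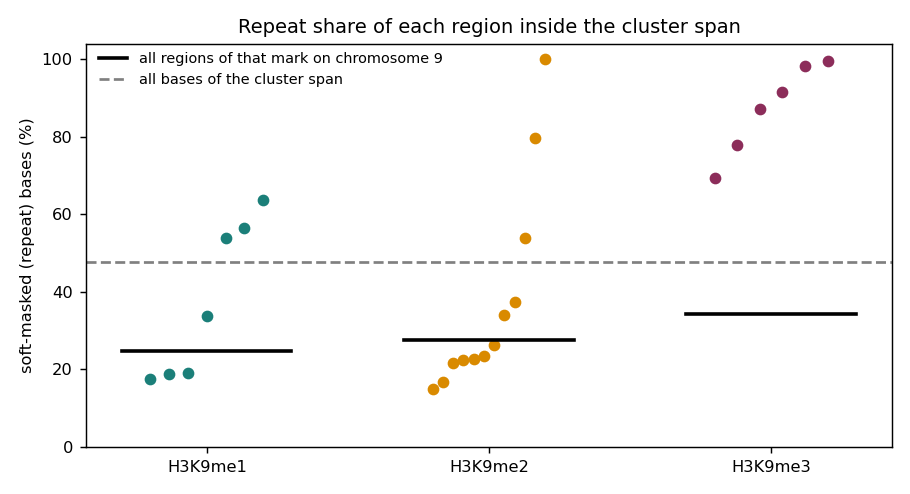
Soft-masked (repeat) share of each called region inside the span (dots), in %, by mark, with the share over all bases covered by that mark on chromosome 9 (black lines) and over all bases of the span (dashed line, 47.8%). The 6 H3K9me3 regions stand between 69.3 and 99.6%, above the dashed line and above the 34.3% of H3K9me3 bases on chromosome 9.

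Promoters of the cluster were poor in CpG and rich in the AP-1 and TATA motifs. The median entry held 1 CpG and 41.7% GC, against 7 CpG and 52.7% GC over all 32851 RefSeq promoters of the same length. A member counted as having a motif if any of its entries held it, whereas the share of all promoters is counted by entry. The AP-1 motif was present in 7 members (Mmp13, Mmp12, Mmp1b, Mmp3, Mmp1a, Mmp10 and Mmp7), or 7 of their 12 entries, and in 5.20% of all promoters. The TATA motif was present in 9 members, Mmp27 being without it, and in 13.6% of all promoters. In the printed sequences the AP-1 motif began 35 bases before the start of Mmp13, 44 before the downstream start of Mmp12, 46 before that of Mmp3, 63 before that of Mmp7, 73 before that of Mmp1a and 93 before that of Mmp1b. The TATA motif of these entries began 16 bases before the start of Mmp13, 7 before that of Mmp3 and 4 after the downstream start of Mmp12. In the entries of Mmp7, Mmp1a and Mmp1b it lay farther before the start. The accuracy of the RefSeq starts was not examined. Of the 7 entries with the AP-1 motif, that of Mmp1a lay inside H3K9me2, that of Mmp7 inside H3K9me1, and 5 met no region. The members without the motif were Mmp8, Mmp20 and Mmp27. The entries of Mmp8 and Mmp20 lay inside a region and that of Mmp27 met none. By the wider start window, Mmp12, Mmp1b, Mmp1a and Mmp7 were met among members with the motif, and Mmp8 and Mmp20 among those without. Mmp12 was met there by its upstream starts, whose entry lacks the motif. A motif match is a description of sequence and does not show binding.

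Other Mmp genes lie outside the cluster, on other chromosomes whose coverage differs widely. Of these 13 genes, H3K9me1 met the starts of 7, H3K9me2 of 4 and H3K9me3 of 4, or 53.8%, 30.8% and 30.8%, against 28.2%, 10.8% and 10.2% of all coding genes. With 13 genes these shares were not tested. Their body bases were covered to 24.7%, 7.23% and 8.17%. Examples chosen after their values were seen are Mmp19 on chromosome 10, whose start met all 3 marks, Mmp2 on chromosome 8, the gelatinase of fibroblasts, with 82.8% of its body in H3K9me3, and Mmp14 on chromosome 14, the membrane-type activator of Mmp2, with no region at its start or in its body. Of 25 partner genes (inhibitors, the plasminogen system, AP-1 factors and substrates), H3K9me1 met the starts of 5, H3K9me2 of 3 and H3K9me3 of 2, or 20%, 12% and 8%, which lay near those shares of all coding genes. None of these 25 lies on chromosome 9.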

How the data were processed

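ChIP-seq regions of 3 marks in wild-type MEFs were used, with 1 list for the 2 replicates of each mark. Per the labels and the study's methods, the authors aligned reads to mm10 (GRCm38) with BWA 0.7.1 and called regions with histoneHMM, which sorts bins into enriched and not enriched. How replicates and input entered the call, and its threshold, is not given in the sources used here. The deposited values are region starts and ends, which lay on a grid of 750 bp (0 positions off it) with starts read as 1-based. Genes came from GENCODE M21, with protein-coding genes and polymorphic pseudogenes called coding, and base composition and soft-masking from the GRCm38.p6 assembly. Overlap needed at least 1 bp, within 1 kb of any annotated start or in the body. Overlap code was checked on simulated data. No test was run. The members and lists were chosen with earlier results of these data known. By rule, all members and coding neighbours within 200 kb were named, and 2 fixed lists were given by counts. Mmp2, Mmp14, Mmp19 and the noncoding AV064505 and Gm19212 fall outside it and were named after their values were seen. Input libraries had no list that was analysed here. Python 3.11.15, NumPy 2.4.6 and Matplotlib 3.10.9 were used.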

Additional observations from a re-analysis of the deposited data

How the results depend on the processing

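Of 57 values recomputed for 12 results, 45 stayed within 1.5 times the count reported or within the interval of the share, and 12 did not. Both bounds are working limits and measure no error. Keeping regions of at least 5 kb, which removes regions by construction, left 1 member start met by H3K9me1 (Mmp7) and 1 by H3K9me2 (Mmp12), 1 body met by H3K9me1 and 2 by H3K9me2, and H3K9me1 and H3K9me2 then covered 1.76% and 8.08% of the span. Requiring 50% of the body or more, 0 members were met by any mark. With 200 kb on either side added to the span, H3K9me2 covered 7.71% and H3K9me3 5.53%. H3K9me3 met 0 starts under each of these alternatives. That outcome was fixed in advance, as no member start lay nearer than 6.1 kb to H3K9me3, and these values are among the 45. Regions of at least 2 kb left Mmp8 out of the H3K9me1 starts. Leaving out Mmp20, chosen after seeing the data, took the share of member body bases to 4.13% for H3K9me2, 0.616% for H3K9me1 and 7.20% for H3K9me3. Windows of 500 bp either side dropped Mmp1b from the H3K9me2 starts, and windows of 2 kb added Mmp7. No paired analysis was possible because each mark has a single list without replicate columns, and for the same reason no replicate could be left out. A region absent from a list may lie below the calling threshold, and how far depth limits this is unknown.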
